A study of Macaca mulatta with 16 samples.

Results

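The genes that copy DNA in the S phase of the cell cycle were followed in the lungs of 16 fetal rhesus macaques. The set holds 46 genes of replication licensing, helicase activation, the DNA polymerases and their clamp, nucleotide supply, G1/S control, chromatin assembly and the replication checkpoint. They were taken as a list of symbols, each matched to its rhesus Ensembl ID in a table of 22515 genes. The matching used no measured value, but this list and the comparison lists were chosen with earlier results of these data known. Their shares, set beside those of all tested genes below, describe these data and are not an independent test. All 46 had enough reads to be tested, among 19199 genes that did.

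Before a cell divides, the origin recognition complex, CDC6 and CDT1 load the MCM2 to MCM7 helicase onto DNA, and cyclin and CDC7 kinases then fire the loaded origins. The E2F factors turn on most of these genes at the G1/S boundary, so their transcripts are abundant where many cells are cycling. The fetal lung grows by division of epithelial, endothelial and mesenchymal progenitors, and this growth slows as the lung matures and its mesenchyme thins toward term.

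The study asked how prenatal inflammation and antenatal corticosteroids change the maturation of the preterm lung. The 4 preterm controls had no intervention and were delivered at 131 to 135 days of gestation. The 4 animals of the LPS 16-hour group received 1 mg of bacterial lipopolysaccharide (LPS) by intraamniotic injection at 129 to 130 days and were delivered 16 hours later, at 130 to 131 days. The 3 animals of the LPS 5-day group received the same dose at 126 to 129 days and were delivered 5 days later, at 131 to 134 days. The 3 animals of the LPS + Beta-Ac group received this LPS at 126 to 127 days together with betamethasone acetate (Beta-Ac), a corticosteroid, as 0.125 mg/kg by intramuscular injection of the mother, and were delivered 5 days later at 131 to 132 days. The 2 term controls had no intervention and were delivered at 156 and 157 days. LPS was given once, the controls were not injected, and a group with Beta-Ac alone was not analysed here. Each animal is 1 library of whole lung RNA, and its number below is that of the label.

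Totals ran from 20169363 to 28348816 counts per animal in the preterm controls, from 20214144 to 27616930 in the 5-day and term groups, and from 30596371 to 48052891 at 16 hours. Levels are given as CPM, a gene's count over the animal's total after TMM, a scaling by trimmed means of gene ratios. Lung epithelial markers (NKX2-1, SFTPC, SFTPB, EPCAM, AGER) were detected in every animal and summed to 5742 to 16275 CPM. Preterm control 209 and term control 200 stood apart on the second principal component of the 12 animals outside the 16-hour group, at 53.6 and 54.1, with the others at 30.7 or below. Differences are log2 fold changes ± standard error from limma across all tested genes and 16 animals, with two-sided p values adjusted by Benjamini-Hochberg over all 19199. A gene passed the test at an adjusted p below 0.05, and was called when it also changed at least 2-fold.

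**Figure D1:**
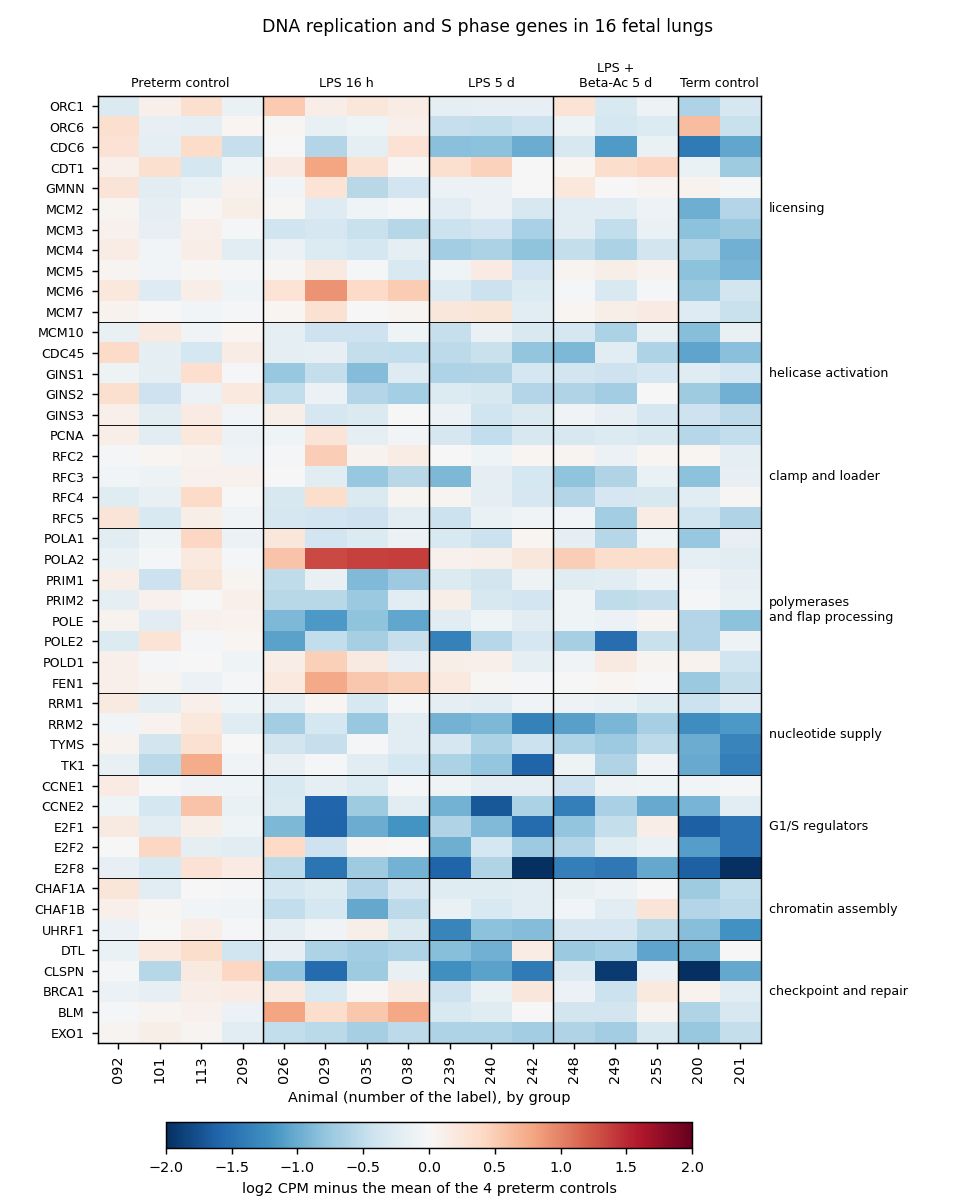
Level of each of the 46 genes (rows, by role) in each of the 16 animals (columns, by group), as log2 CPM minus the mean of the 4 preterm controls, with blue for lower, red for higher and the colour scale ending at 2 in both directions. Blue cells predominate in the 5-day and term groups. At 16 hours 35 genes were lower by limma and 11 higher, with POLA2, MCM6, FEN1 and BLM in red beside E2F1, E2F8 and POLE in blue.

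Averaged over the 46 genes, the level was highest in the preterm controls and lowest at term. The mean log2 CPM was 3.52 ± 0.09 (SD, n = 4) in the preterm controls, 3.31 ± 0.05 (n = 4) 16 hours after LPS, 3.11 ± 0.03 (n = 3) 5 days after LPS, 3.22 ± 0.12 (n = 3) with LPS + Beta-Ac, and 2.92 ± 0.04 (n = 2) at term. Single animals ran from 3.41 to 3.63 in the preterm controls, from 3.23 to 3.35 at 16 hours, from 3.09 to 3.15 at 5 days after LPS, from 3.11 to 3.34 with LPS + Beta-Ac, and were 2.89 and 2.94 at term. No preterm control overlapped any other group, the LPS + Beta-Ac animals spanned from the LPS 5-day range into the 16-hour range, and both term animals lay below every other animal. In whole lung, fewer dividing cells and less of these transcripts per cell cannot be told apart.

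The G1/S regulators had the widest mean differences of the roles. E2F8 (ENSMMUG00000010853), an atypical E2F that represses E2F targets late in the S phase, was at 2.87, 2.59, 3.94 and 3.61 CPM in the preterm controls and at 2.20, 1.17, 1.97 and 1.66 CPM 16 hours after LPS. It was at 1.05, 2.11 and 0.713 CPM 5 days after LPS, at 1.24, 1.20 and 1.58 CPM with LPS + Beta-Ac and at 1.03 and 0.777 CPM at term. All 12 of these animals lay below the lowest preterm control. By limma the log2 fold change of E2F8 from preterm control was -0.89 ± 0.29 at 16 hours (adjusted p = 0.0263), -1.40 ± 0.32 at 5 days after LPS (adjusted p = 0.00842), -1.23 ± 0.32 with LPS + Beta-Ac (adjusted p = 0.0142) and -1.76 ± 0.36 at term (adjusted p = 0.0154). CCNE1 encodes cyclin E1, which drives entry into the S phase with CDK2. Its level was 10.3, 9.12, 8.80 and 8.67 CPM in the preterm controls, 7.42, 8.16, 7.58 and 9.01 CPM at 16 hours, 8.68, 8.14 and 8.13 CPM at 5 days after LPS, 6.93, 8.59 and 8.71 CPM with LPS + Beta-Ac and 8.83 and 8.96 CPM at term. The groups overlapped, and its fold changes lay between -0.20 and -0.05 with no adjusted p below 0.231. E2F1 (ENSMMUG00000023550), the activator that releases the G1/S programme, was at 3.74, 2.87, 3.62 and 3.13 CPM in the preterm controls, 1.77, 1.09, 1.67 and 1.45 CPM at 16 hours, 2.18, 1.80 and 1.14 CPM at 5 days after LPS, 1.92, 2.39 and 3.62 CPM with LPS + Beta-Ac and 1.07 and 1.20 CPM at term. The 16-hour, LPS 5-day and term animals lay below every preterm control, and LPS + Beta-Ac animal 255 was as high as the preterm controls. It fell at 16 hours (-1.14 ± 0.24, adjusted p = 0.00180), at 5 days after LPS (-0.98 ± 0.26, adjusted p = 0.0208) and at term (-1.50 ± 0.30, adjusted p = 0.0137), and with LPS + Beta-Ac its difference was -0.37 ± 0.26 (adjusted p = 0.378). E2F2 (ENSMMUG00000011832), another activator, was at 2.44, 3.24, 2.13 and 2.11 CPM in the preterm controls, 3.23, 1.83, 2.50 and 2.44 CPM at 16 hours, 1.23, 1.92 and 1.47 CPM at 5 days after LPS, 1.62, 2.07 and 2.24 CPM with LPS + Beta-Ac and 1.14 and 0.874 CPM at term. The LPS 5-day and term animals lay below every preterm control, and the 16-hour and LPS + Beta-Ac groups overlapped them. It fell at term (-1.23 ± 0.27, adjusted p = 0.0231) and was at 0.01 at 16 hours. CCNE2, the second cyclin E, had differences of -1.04 ± 0.35 at 5 days after LPS and -0.97 ± 0.35 with LPS + Beta-Ac, and neither passed the test (adjusted p = 0.0591 and 0.0710).

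Among the licensing genes, CDC6 (ENSMMUG00000004755), which loads the MCM helicase together with CDT1, was at 4.31, 3.06, 4.54 and 2.55 CPM in the preterm controls and at 3.51, 2.34, 3.11 and 4.30 CPM 16 hours after LPS. Its level was 1.96, 2.00 and 1.76 CPM 5 days after LPS, 2.83, 1.60 and 3.20 CPM with LPS + Beta-Ac and 1.32 and 1.72 CPM at term. The LPS 5-day and term animals lay below every preterm control and every 16-hour animal, and the LPS + Beta-Ac animals overlapped both. By limma CDC6 fell 5 days after LPS (-0.86 ± 0.28, adjusted p = 0.0482) and at term (-1.18 ± 0.31, adjusted p = 0.0477), with differences of -0.12 ± 0.26 at 16 hours and -0.52 ± 0.28 with LPS + Beta-Ac that did not pass. CDT1 was at 53.9, 62.5, 39.4 and 47.1 CPM in the preterm controls, 56.2, 86.4, 61.5 and 51.02 CPM at 16 hours, 62.2, 68.7 and 50.1 CPM at 5 days after LPS, 51.5, 63.9 and 66.5 CPM with LPS + Beta-Ac and 45.7 and 30.5 CPM at term. All groups overlapped the preterm controls, and the differences were 0.32 ± 0.19, 0.26 ± 0.20, 0.27 ± 0.20 and -0.42 ± 0.23 in the same order, with the smallest adjusted p at 0.196.

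The 6 subunits of the MCM2 to MCM7 helicase had unlike values. MCM4 was at 32.8, 28.6, 32.4 and 25.6 CPM in the preterm controls, 27.3, 24.6, 23.2 and 26.1 CPM at 16 hours, 18.3, 19.1 and 17.1 CPM at 5 days after LPS, 21.3, 19.1 and 23.1 CPM with LPS + Beta-Ac and 19.3 and 15.2 CPM at term. The animals of the LPS 5-day, LPS + Beta-Ac and term groups lay below every preterm control, and the 16-hour group overlapped them. It fell at 5 days after LPS (-0.71 ± 0.13, limma adjusted p = 0.00203), with LPS + Beta-Ac (-0.49 ± 0.13, adjusted p = 0.0142) and at term (-0.79 ± 0.14, adjusted p = 0.00942). MCM3 fell at 16 hours (-0.44 ± 0.11), at 5 days after LPS (-0.49 ± 0.12) and at term (-0.78 ± 0.14), with limma adjusted p of 0.00626, 0.0150 and 0.00824. MCM2 and MCM5 fell at term only among the comparisons with preterm control, by 0.78 and 0.87 on the log2 scale. MCM6 was at 37.9, 27.6, 35.99 and 30.8 CPM in the preterm controls, 39.5, 61.2, 42.6 and 46.8 CPM at 16 hours, 27.2, 24.4 and 27.2 CPM at 5 days after LPS, 32.2, 26.6 and 32.3 CPM with LPS + Beta-Ac and 19.6 and 25.4 CPM at term. All 16-hour animals lay above every animal of the other groups, and the LPS 5-day and term animals lay below every preterm control. It rose at 16 hours (0.51 ± 0.15, limma adjusted p = 0.0127) and was at -0.32 ± 0.16 at 5 days after LPS. MCM7 passed in no comparison, with differences from preterm control between -0.35 and 0.11. ORC1 and ORC6, subunits of the origin recognition complex, and GMNN, which encodes the CDT1 inhibitor geminin, passed in no comparison either, and their differences from preterm control ran from -0.47 to 0.25.

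Helicase activation joins CDC45 and the GINS complex to the loaded MCM ring. GINS1 was at 22.03, 20.8, 30.03 and 23.1 CPM in the preterm controls, 14.1, 17.1, 13.02 and 19.9 CPM at 16 hours, 15.4, 15.7 and 18.5 CPM at 5 days after LPS, 18.4, 17.8 and 18.7 CPM with LPS + Beta-Ac and 20.1 and 18.6 CPM at term. Every animal outside the preterm controls lay below all of them. GINS1 fell at 16 hours (-0.58 ± 0.15, limma adjusted p = 0.00559) and at 5 days after LPS (-0.52 ± 0.16, adjusted p = 0.0377), and was at -0.38 ± 0.16 with LPS + Beta-Ac (adjusted p = 0.123) and -0.29 ± 0.18 at term (adjusted p = 0.415). CDC45 was at 4.31, 2.92, 2.59 and 3.64 CPM in the preterm controls, 2.88, 2.95, 2.36 and 2.35 CPM at 16 hours, 2.29, 2.42 and 1.90 CPM at 5 days after LPS, 1.77, 2.83 and 2.16 CPM with LPS + Beta-Ac and 1.58 and 1.84 CPM at term. The LPS 5-day and term animals lay below the preterm controls, the others overlapped them, and only the term difference passed (-0.92 ± 0.25, limma adjusted p = 0.0491, against -0.58 ± 0.22 and adjusted p = 0.0910 at 5 days after LPS). MCM10, GINS2 and GINS3, of the same step, were lower in all 4 comparisons with preterm control, by 0.13 to 0.81 on the log2 scale, and none of these differences passed.

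Of the polymerase genes, 2 had the most marked differences 16 hours after LPS, in opposite directions. POLA2 (ENSMMUG00000022031), the regulatory subunit of the polymerase alpha and primase complex that starts each new strand, was at 8.62, 9.31, 10.9 and 9.22 CPM in the preterm controls and at 14.1, 23.6, 24.5 and 24.8 CPM at 16 hours. It was at 10.1, 10.2 and 11.1 CPM at 5 days after LPS, 13.3, 12.1 and 12.03 CPM with LPS + Beta-Ac and 8.31 and 8.09 CPM at term. Every 16-hour animal lay above every animal of the other groups, and animal 026 was nearer to the others than the rest of its group. POLA2 rose at 16 hours (1.16 ± 0.16, 2.23-fold, limma adjusted p = 5.73e-05) and was at 0.14 ± 0.18, 0.39 ± 0.18 and -0.21 ± 0.20 in the other comparisons with preterm control, none of which passed. POLE, the catalytic subunit of the leading strand polymerase epsilon, was at 24.9, 20.6, 25.3 and 25.02 CPM in the preterm controls, 12.7, 10.8, 13.7 and 11.6 CPM at 16 hours, 20.7, 22.6 and 20.3 CPM at 5 days after LPS, 22.4, 22.00 and 24.7 CPM with LPS + Beta-Ac and 15.96 and 13.6 CPM at term. The 16-hour and term animals lay below every preterm control, and the 2 groups at 5 days overlapped them. It fell at 16 hours (-0.97 ± 0.11, limma adjusted p = 9.62e-06) and at term (-0.70 ± 0.14, adjusted p = 0.0150), and was at -0.17 ± 0.12 at 5 days after LPS. In RefSeq's newer rhesus assembly the span of POLA2 overlaps a long noncoding RNA and that of POLE overlaps the gene PXMP2. Spans of RRM2, E2F8 and POLE2 overlap a small nucleolar RNA, a long noncoding RNA and the gene KLHDC1, and no source used here says whether the counting used strand.

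POLE2, the second subunit of polymerase epsilon, was at 5.31, 7.69, 6.21 and 6.56 CPM in the preterm controls, 3.05, 4.55, 4.03 and 4.65 CPM at 16 hours, 2.51, 4.30 and 5.09 CPM at 5 days after LPS, 4.03, 2.21 and 4.66 CPM with LPS + Beta-Ac and 4.27 and 5.92 CPM at term. Every animal given LPS lay below every preterm control, and of the 4 differences only that with LPS + Beta-Ac passed (-0.87 ± 0.28, limma adjusted p = 0.0456). At 16 hours it was -0.66 ± 0.26 (adjusted p = 0.0580) and at 5 days after LPS -0.74 ± 0.28 (adjusted p = 0.0954). POLD1, the catalytic subunit of the lagging strand polymerase delta, was at 41.5, 38.2, 38.9 and 36.7 CPM in the preterm controls, 42.3, 54.1, 44.1 and 34.4 CPM at 16 hours, 41.98, 41.4 and 34.4 CPM at 5 days after LPS, 37.00, 43.9 and 40.2 CPM with LPS + Beta-Ac and 40.6 and 29.3 CPM at term. The groups overlapped, and no difference passed (-0.17 to 0.15). The primase subunits PRIM1 and PRIM2 fell at 16 hours (-0.56 ± 0.18 and -0.52 ± 0.15, limma adjusted p = 0.0216 and 0.0124), and FEN1, which removes the flaps of Okazaki fragments, rose (0.49 ± 0.14, adjusted p = 0.0116). At 5 days after LPS PRIM1, PRIM2 and FEN1 were at -0.24, -0.20 and 0.06, and none passed. POLA1, the catalytic subunit that POLA2 binds, passed in no comparison and was at -0.14 ± 0.19 at 16 hours.

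The sliding clamp PCNA holds the polymerases on DNA. Its level was 43.97, 34.4, 46.5 and 36.9 CPM in the preterm controls, 37.7, 47.9, 35.5 and 38.6 CPM at 16 hours, 31.9, 28.4 and 32.1 CPM at 5 days after LPS, 31.99, 33.3 and 32.00 CPM with LPS + Beta-Ac and 27.03 and 28.6 CPM at term. The 8 animals of the LPS 5-day, LPS + Beta-Ac and term groups lay below every preterm control and every 16-hour animal. Against preterm control the differences of PCNA missed the threshold, at -0.38 ± 0.13 at 5 days after LPS (limma adjusted p = 0.0575), -0.31 ± 0.13 with LPS + Beta-Ac (adjusted p = 0.116) and -0.53 ± 0.14 at term (adjusted p = 0.0555). RFC3, a subunit of the clamp loader, was at 11.2, 10.8, 12.3 and 12.3 CPM in the preterm controls, 11.6, 10.1, 6.91 and 7.88 CPM at 16 hours, 6.21, 10.2 and 9.08 CPM at 5 days after LPS, 6.63, 7.69 and 10.6 CPM with LPS + Beta-Ac and 6.58 and 10.4 CPM at term. The last 3 groups lay below the preterm controls, with differences of -0.48 ± 0.23, -0.51 ± 0.23 and -0.49 ± 0.26, and none passed. The loader subunits RFC2, RFC4 and RFC5 passed in no comparison, and RFC2 stayed between -0.08 and 0.17 against preterm control.

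Nucleotide supply divided by gene. RRM2 (ENSMMUG00000002057), the subunit of ribonucleotide reductase whose level follows the S phase, was at 24.2, 26.4, 29.1 and 21.2 CPM in the preterm controls and 15.5, 19.5, 14.9 and 21.6 CPM at 16 hours. It was at 12.96, 13.4 and 9.84 CPM at 5 days after LPS, 11.8, 13.3 and 15.7 CPM with LPS + Beta-Ac and 10.6 and 11.3 CPM at term. Those last 8 animals lay below every preterm control. Of the 16-hour animals, 038 was inside the preterm range, and 026 and 035 were below LPS + Beta-Ac animal 255. By limma RRM2 fell in all 4 comparisons with preterm control: -0.50 ± 0.16 at 16 hours (adjusted p = 0.0200), -1.06 ± 0.17 at 5 days after LPS (adjusted p = 0.00104), -0.89 ± 0.17 with LPS + Beta-Ac (adjusted p = 0.00227) and -1.19 ± 0.19 at term (adjusted p = 0.00533). RRM1, its partner subunit, was at 63.6, 49.2, 60.8 and 53.1 CPM in the preterm controls, 49.5, 58.04, 45.2 and 55.6 CPM at 16 hours, 49.1, 48.7 and 53.4 CPM at 5 days after LPS, 52.3, 51.3 and 47.9 CPM with LPS + Beta-Ac and 41.9 and 47.02 CPM at term. Only the term animals lay below every preterm control, and the differences of RRM1 were -0.12, -0.16, -0.16 and -0.34, none of which passed. TYMS (ENSMMUG00000004046), the thymidylate synthase, was at 21.98, 16.2, 25.8 and 20.7 CPM in the preterm controls, 16.2, 15.2, 20.3 and 17.9 CPM at 16 hours, 16.5, 13.5 and 15.4 CPM at 5 days after LPS, 13.6, 12.7 and 14.6 CPM with LPS + Beta-Ac and 10.6 and 8.35 CPM at term. The LPS + Beta-Ac and term animals lay below every preterm control, and the 16-hour and LPS 5-day groups overlapped them. It fell with LPS + Beta-Ac and at term, with limma differences of -0.62 ± 0.16 (adjusted p = 0.0160) and -1.15 ± 0.18 (adjusted p = 0.00485), beside -0.47 ± 0.16 (adjusted p = 0.0671) at 5 days after LPS. TK1, the thymidine kinase of the salvage pathway, fell at 5 days after LPS (-0.96 ± 0.29, limma adjusted p = 0.0358) and was at -0.26 ± 0.29 with LPS + Beta-Ac (adjusted p = 0.607).

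**Figure D2:**
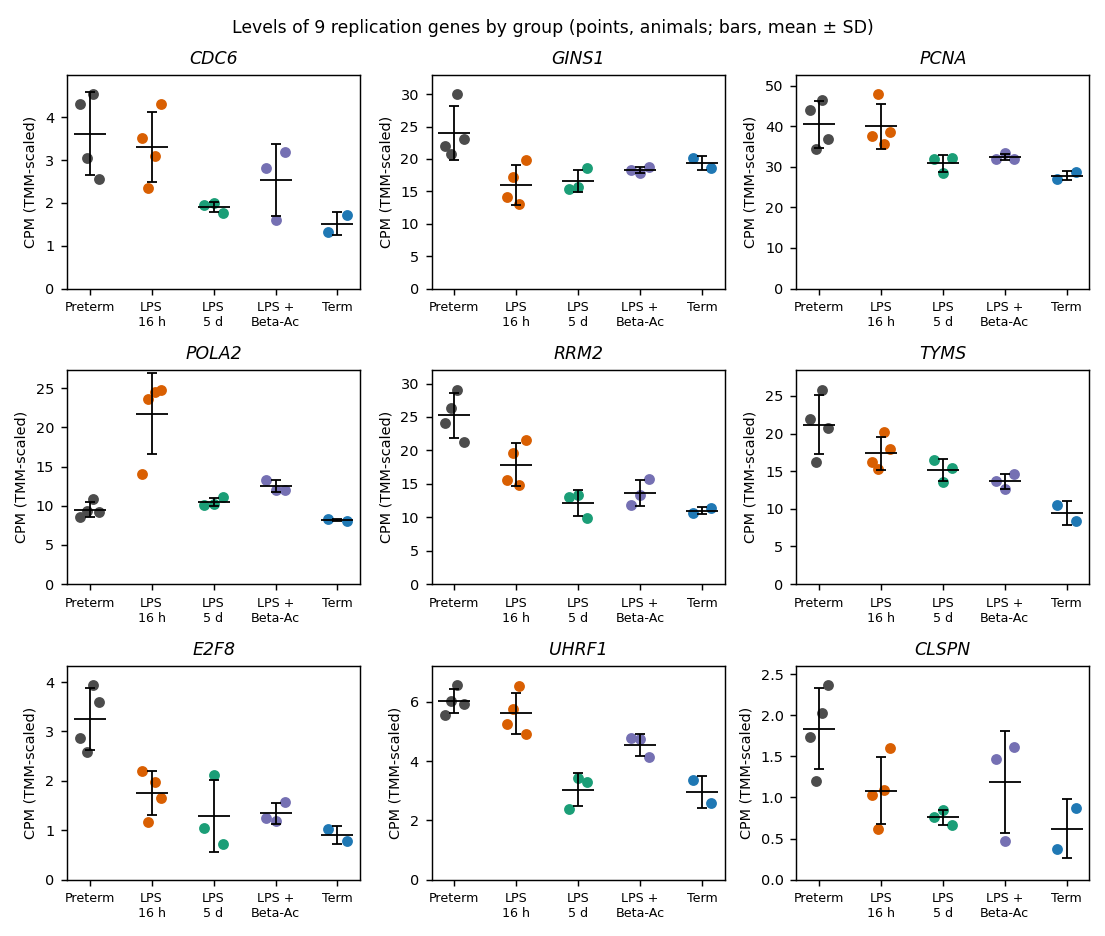
CPM of 9 of the genes in each group, with 1 point per animal, the group mean as a horizontal line and the SD as an error bar (n = 4, 4, 3, 3 and 2), on axes that start at 0. E2F8 and GINS1 are below the preterm controls in every other group, POLA2 is high in the 16-hour group, and UHRF1 and CDC6 are lower at 5 days than at 16 hours after LPS. UHRF1 lies higher in the LPS + Beta-Ac animals than in the LPS 5-day animals, a difference that did not pass the test.

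Chromatin assembly genes package and mark the new DNA. UHRF1 (ENSMMUG00000012705), which recruits the maintenance DNA methyltransferase to replicated DNA, was at 5.57, 6.02, 6.57 and 5.94 CPM in the preterm controls and 5.25, 5.74, 6.54 and 4.91 CPM at 16 hours. It was at 2.40, 3.42 and 3.28 CPM at 5 days after LPS, 4.79, 4.75 and 4.13 CPM with LPS + Beta-Ac and 3.35 and 2.59 CPM at term. The LPS + Beta-Ac animals lay below every preterm and 16-hour animal and above every LPS 5-day and term animal. Their difference from the LPS 5-day animals did not pass the limma test. UHRF1 fell at 5 days after LPS (-0.99 ± 0.17, limma adjusted p = 0.00171) and at term (-1.01 ± 0.20, adjusted p = 0.0120), and was at -0.40 ± 0.17 with LPS + Beta-Ac (adjusted p = 0.131). CHAF1A, the large subunit of the histone chaperone CAF-1, was at 13.5, 9.77, 11.3 and 11.1 CPM in the preterm controls, 8.84, 9.33, 7.58 and 8.95 CPM at 16 hours, 9.62, 9.59 and 9.65 CPM at 5 days after LPS, 10.2, 10.6 and 11.3 CPM with LPS + Beta-Ac and 6.91 and 8.03 CPM at term. The 16-hour, LPS 5-day and term animals lay below the preterm controls, and the LPS + Beta-Ac animals overlapped them. CHAF1A fell at 16 hours (-0.39 ± 0.13, limma adjusted p = 0.0254) and at term (-0.60 ± 0.16, adjusted p = 0.0438), and its partner CHAF1B fell at 16 hours (-0.59 ± 0.16, adjusted p = 0.00878).

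Among the checkpoint and repair genes single animals stood out. DTL, the adaptor through which a ubiquitin ligase destroys CDT1 on replicating DNA, was at 60.1, 75.3, 84.6 and 50.01 CPM in the preterm controls, 59.2, 43.02, 40.6 and 43.2 CPM at 16 hours, 36.9, 33.96 and 73.5 CPM at 5 days after LPS, 39.5, 41.2 and 31.7 CPM with LPS + Beta-Ac and 34.4 and 66.2 CPM at term. The LPS + Beta-Ac animals all lay below the preterm controls, whereas 16-hour animal 026, LPS 5-day animal 242 and term animal 201 were within their range. No difference of DTL passed, the nearest being -0.83 ± 0.28 with LPS + Beta-Ac (limma adjusted p = 0.0529), and its span overlaps that of INTS7. CLSPN encodes claspin, which carries the signal from stalled forks to CHEK1, and was at 1.74, 1.20, 2.02 and 2.37 CPM in the preterm controls, 1.03, 0.612, 1.09 and 1.60 CPM at 16 hours, 0.763, 0.844 and 0.665 CPM at 5 days after LPS, 1.47, 0.471 and 1.62 CPM with LPS + Beta-Ac and 0.368 and 0.874 CPM at term. The LPS 5-day and term animals lay below the preterm controls, and the differences of -1.17 ± 0.42 (limma adjusted p = 0.0749) and -1.53 ± 0.47 (adjusted p = 0.0861) missed the threshold. Fitted to the compared groups only, CLSPN was called at 5 days after LPS (-1.17, adjusted p = 0.0239). BLM, the helicase that resolves recombination intermediates, was at 25.5, 26.9, 27.4 and 24.00 CPM in the preterm controls, 44.97, 33.1, 37.7 and 44.5 CPM at 16 hours, 20.9, 21.99 and 25.9 CPM at 5 days after LPS, 20.1, 20.1 and 26.9 CPM with LPS + Beta-Ac and 16.99 and 20.7 CPM at term. All 16-hour animals lay above every animal of the other groups, and both term animals lay below every preterm control. It rose at 16 hours (0.62 ± 0.13, limma adjusted p = 0.00206) and was at -0.18 ± 0.15 at 5 days after LPS. EXO1, a repair exonuclease, fell at 16 hours (-0.55 ± 0.15), 5 days after LPS (-0.63 ± 0.16) and with LPS + Beta-Ac (-0.53 ± 0.16), with limma adjusted p of 0.00838, 0.0152 and 0.0300, and was at -0.60 ± 0.18 (adjusted p = 0.0766) at term. BRCA1 passed in no comparison and stayed between -0.12 and 0.02 against preterm control.

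At 16 hours after LPS genes of the set passed in both directions, as did genes in general. Of the 46 genes 2 were called (4.35%), POLA2 higher and E2F1 lower, against 14.4% of all tested genes. Those that fell at any size were 11 genes (MCM3, GINS1, PRIM1, PRIM2, POLE, RRM2, E2F1, E2F8, CHAF1A, CHAF1B and EXO1), or 23.9%, beside 19.9% of all tested genes. Those that rose were 4 (POLA2, MCM6, FEN1 and BLM), or 8.70%, beside 18.5%. The share that fell was thus near that of all tested genes, and the shares that rose or were called were below it. In 10 of the 46 every 16-hour animal lay below every preterm control, beside 16.9% of all tested genes. The median fold change of the set was -0.19, with 35 genes lower and 11 higher, and the median of all tested genes was -0.09. Scaling by library totals alone moved the median of all genes to -0.29 and that of the set to -0.39, raised the lower share of all calls from 42.6% to 60.6%, left 22 genes of the set lower and 2 (POLA2 and BLM) higher at an adjusted p below 0.05, and put POLA2 at 0.96, under 2-fold. The genes called were then 3, all lower (POLE, E2F1 and E2F8). The share of all tested genes that passed with this scaling was not counted, so the 22 cannot be set against 19.9%. Without animal 029 E2F1 was at -0.97 and not called, and without animal 035 the genes that fell numbered 7. Summed myeloid markers (CSF3R, S100A8, S100A9, CD68, MARCO, CD14) were at 1874 to 2719 CPM in this group and 57.3 to 88.5 CPM in the preterm controls, where MARCO was at 0 in all 4 animals, and the part of these cells in the result was not tested.

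At 5 days after LPS every gene of the set that passed had fallen. They were 10 genes (CDC6, MCM3, MCM4, GINS1, RRM2, TK1, E2F1, E2F8, UHRF1 and EXO1), beside 9.23% of all tested genes, and no member was among the 5.5% of genes that passed as higher. RRM2 and E2F8 were called, 2 of 46 against 4.84% of all tested genes, and UHRF1 at -0.99 was just under 2-fold. In 21 of the 46 every LPS animal lay below every preterm control, beside 15.6% of all tested genes. The median fold change was -0.28, with 41 genes lower and 5 higher, and 0.00 over all tested genes. RRM2 was not called without preterm control 113 (-0.99) or LPS animal 242 (-0.92), while leaving out preterm control 101 or 209, or LPS animal 239, raised the number called to 4. Without LPS animal 240 the genes that fell numbered 5, and without 092, 113 or 242 they numbered 6. Without both animals that stood apart, 209 and 200, 4 were called and 8 fell. Summed myeloid markers were at 156 to 195 CPM and summed mesenchymal markers (COL1A1, COL1A2, PDGFRA, TCF21) at 3085 to 7072 CPM, against 5527 to 10414 CPM in the preterm controls, and their part in the result was not tested. COL1A1 and COL1A2 made up most of the mesenchymal sum. Of the 4 mesenchymal markers 3 were lower and TCF21 was higher (0.07), and none passed the test.

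With LPS + Beta-Ac 6 genes fell against preterm control (MCM4, POLE2, RRM2, TYMS, E2F8 and EXO1), beside 10.2% of all tested genes, and no member was among the 7.14% that passed as higher. E2F8 was the 1 gene called, against 6.49% of all tested genes, and it was not called without LPS + Beta-Ac animal 248 (limma adjusted p = 0.0604) or 249 (adjusted p = 0.0677). In 14 of the 46 every animal lay below every preterm control, beside 16.1% of all tested genes. The median fold change was -0.27, against -0.01 over all tested genes. Without animal 255 the number called was 2, with POLE2 at -1.08. Without animal 249 only 1 gene fell and the median was -0.17, without animal 248 2 fell, without preterm control 113 3 fell and without 092 or 101 4 fell. Summed myeloid markers were at 323 to 518 CPM and mesenchymal markers at 3207 to 4605 CPM, and their part in the result was not tested. COL1A1 and COL1A2 again made up most of the mesenchymal sum, and 2 of the 4 markers passed as lower.

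Added to LPS, Beta-Ac changed no gene of the set at the threshold. By limma 0 of 46 were called and 0 passed, against 0.0885% of all tested genes called, and limma-voom called 0 as well. An unadjusted p below 0.05 was found for 3 of the 46, beside 924 of 19199 tested genes. Those 3 were UHRF1 (0.59 ± 0.18, adjusted p = 0.451), E2F1 (0.61 ± 0.28, adjusted p = 1.00) and TK1 (0.71 ± 0.31, adjusted p = 0.979), all higher with Beta-Ac. UHRF1 and TK1 were higher in every LPS + Beta-Ac animal than in every LPS 5-day animal. The same held for 6 of the 46 in all, beside 1217 of 19199 tested genes. Over the set 33 genes were higher and 13 lower, between -0.28 and 0.71, with a median of 0.07. Of all tested genes 9573 were higher and 9623 lower. All 11 licensing genes were on the higher side, by 0.01 to 0.35. RRM2 was at 0.18 ± 0.18 and E2F8 at 0.17 ± 0.34. None of these differences passed, which does not show that the levels were equal.

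**Figure D3:**
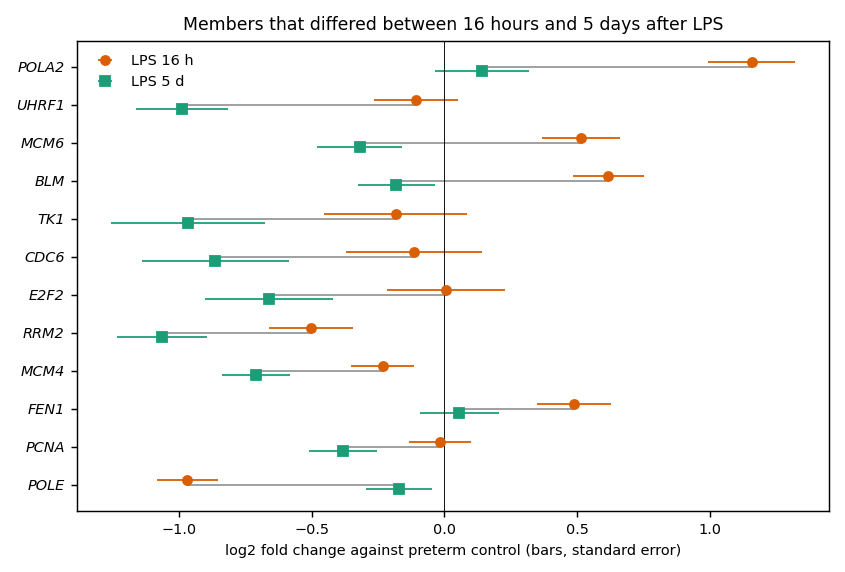
Log2 fold change against preterm control 16 hours (circles) and 5 days (squares) after LPS for the 12 genes with an adjusted p below 0.05 between the 2 times, with standard errors as bars. The circle lies to the right of the square in 11 genes and to the left in POLE.

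Between 16 hours and 5 days after LPS 11 genes of the set were lower at the later time (CDC6, MCM4, MCM6, PCNA, POLA2, FEN1, RRM2, TK1, E2F2, UHRF1 and BLM), beside 19.2% of all tested genes, and POLE was higher, beside 15.8%. POLA2 was the 1 gene called, at -1.01 ± 0.18 (limma adjusted p = 0.000409), against 14.6% of all tested genes. UHRF1 was at -0.88 ± 0.17 (adjusted p = 0.000978), MCM6 at -0.83 ± 0.16 (adjusted p = 0.000865), BLM at -0.80 ± 0.15 (adjusted p = 0.000564) and POLE at 0.80 ± 0.12 (adjusted p = 0.000152). PCNA, which had passed in no comparison with preterm control, was at -0.37 ± 0.13 (adjusted p = 0.0365). This comparison depended on the scaling: with library totals alone the median of the set went from -0.12 to 0.07 and that of all tested genes from 0.04 to 0.22, the lower share of all calls went from 54.4% to 38.0%, and 4 genes (MCM6, POLA2, UHRF1 and BLM) passed as lower and 4 as higher. The shares of all tested genes that passed with this scaling were not counted. POLA2 was then at -0.83, and without animal 029, 035, 038, 239 or 240 it was at -0.93 to -0.99 and not called. Without animal 038 or 242 those that passed as lower numbered 5, and without 035 they numbered 7.

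Term lungs showed the broadest fall. Relative to preterm control 14 genes fell (CDC6, MCM2, MCM3, MCM4, MCM5, CDC45, POLE, RRM2, TYMS, E2F1, E2F2, E2F8, CHAF1A and UHRF1), beside 2.58% of all tested genes, and no member was among the 1.43% that passed as higher. Of these, 7 were called (CDC6, RRM2, TYMS, E2F1, E2F2, E2F8 and UHRF1), against 2.07% of all tested genes. In 32 of the 46 both term animals lay below every preterm control, beside 15.3% of all tested genes. The median fold change was -0.51, with 44 genes lower, and -0.01 over all tested genes. The calls rested on both term animals: 2 genes were called without animal 200 (TYMS and UHRF1) and 1 without animal 201 (RRM2), while the set's median was -0.46 and -0.65. CDC6 was not called without animal 092, 101, 113, 200 or 201 (limma adjusted p from 0.0693 to 0.276) or under 5 of 6 other settings, and E2F2 without 092, 101, 200 or 201 (0.0524 to 0.146) or under 2 of the 6. UHRF1 was not called without 113 (-0.97) or 201 (adjusted p = 0.101), with median-of-ratios scaling (-0.99), with library totals (-0.95) or with the compared groups only (adjusted p = 0.0874). Fitted to the preterm and term animals only, 1 gene of the set (RRM2) was called. Those that fell at any size numbered 3 without animal 200, 4 without animal 201 and 4 without both 200 and 209. Term animals had 2733 to 3701 CPM of summed mesenchymal markers and 216 to 268 CPM of summed myeloid markers, and their part in the result was not tested. Most of this mesenchymal sum was COL1A1 and COL1A2, and 2 of the 4 markers passed as lower.

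**Figure D4:**
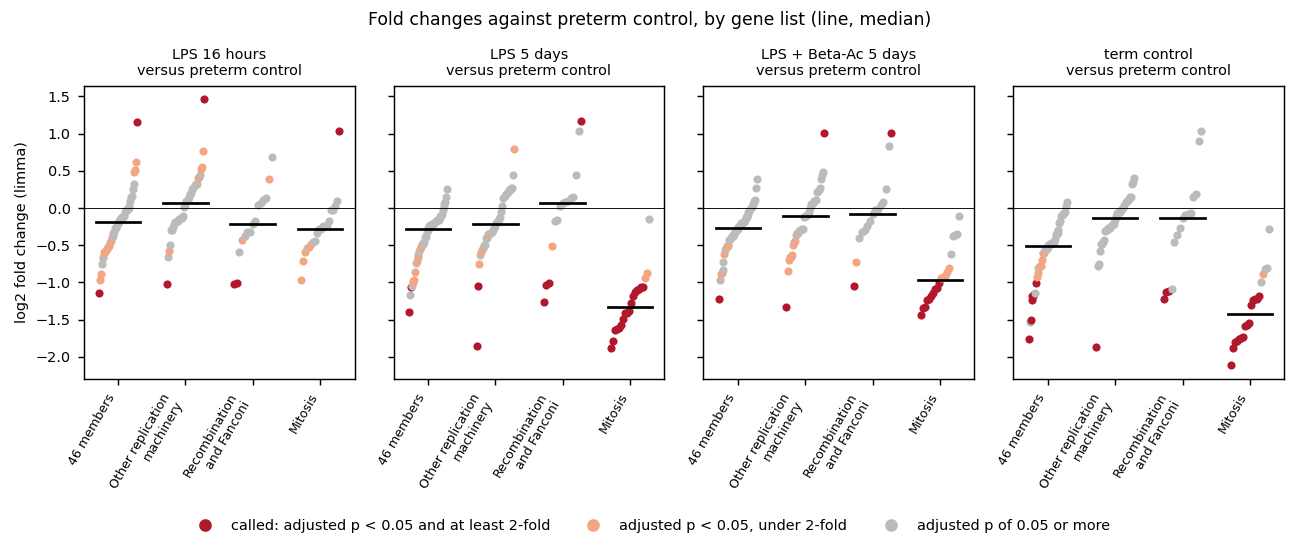
Log2 fold changes against preterm control for the 46 genes, 36 other replication genes, 15 recombination and Fanconi genes and 20 mitosis genes, with 1 point per gene, dark red for called genes, light red for an adjusted p below 0.05 under 2-fold, grey for the rest, and the median as a line. The mitosis genes lie near the other lists at 16 hours (median -0.28) and below them at 5 days after LPS (-1.32), with LPS + Beta-Ac (-0.97) and at term (-1.42).

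The treated lungs were compared with the term lungs as well. By limma 0 of the 46 were called 5 days after LPS against term, beside 0.0625% of all tested genes, with 8 at an unadjusted p below 0.05 (2115 of 19199 tested genes) and 0 called by limma-voom. The median fold change was 0.21, with 34 genes higher than at term, beside -0.01 and 9394 of all tested genes. Every LPS 5-day animal lay above both term animals in 19 of the 46 and below both in 2. Of the 19199 tested genes these were 2690 and 3153. With LPS + Beta-Ac 0 were called, beside 0.568% of all tested genes, with 16 at an unadjusted p below 0.05 (2786 of 19199) and 0 called by limma-voom. MCM5 passed under 2-fold (0.95 ± 0.17, limma adjusted p = 0.0224), the 1 member among the 0.479% of genes that passed as higher, and it did not pass without term animal 200 or 201 or LPS + Beta-Ac animal 248 or 249. The median here was 0.30, with 35 genes higher than at term, beside -0.01 and 9385 of all tested genes. Every LPS + Beta-Ac animal lay above both term animals in 23 of the 46 and below both in 2. Of the 19199 tested genes these were 3003 and 3331. That 0 were called in either comparison does not show that the levels were equal to those at term.

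A list of 20 genes of mitosis and proliferation, called mitosis genes here, was counted beside the set. At 16 hours 1 of 20 was called (CENPE, a kinetochore motor, higher at 1.03), beside 14.4% of all tested genes, and limma-voom called 0. The groups overlapped, with CENPE at 8.35 CPM in 16-hour animal 029 and 9.76 CPM in preterm control 113. Without 16-hour animal 026 or 038, or without preterm control 092, 0 mitosis genes were called. At 5 days after LPS 17 of 20 fell at least 2-fold, beside 4.84% of all tested genes called. TOP2A, the topoisomerase that untangles replicated chromosomes, fell most at 5 days (-1.89 ± 0.25, limma adjusted p = 0.000373), followed by KIF20A (-1.79), NDC80 (-1.63) and FOXM1 (-1.62). The proliferation marker MKI67 was at 41.7, 28.6, 44.9 and 37.8 CPM in the preterm controls, 37.2, 21.9, 43.3 and 53.4 CPM at 16 hours and 18.1, 16.8 and 14.9 CPM at 5 days after LPS. The 16-hour animals lay on both sides of the preterm range and the 5-day animals all below it, with limma differences of -0.02 ± 0.23 (adjusted p = 0.947) and -1.19 ± 0.25 (adjusted p = 0.00511). The mitotic cyclin CCNB1 was at 0.03 ± 0.16 at 16 hours and fell by 5 days (-1.06 ± 0.17, adjusted p = 0.00112). With LPS + Beta-Ac 10 of 20 mitosis genes were called, at term 15, and between 16 hours and 5 days after LPS 11, all lower, beside 6.49%, 2.07% and 14.6% of all tested genes. Leaving out any 1 animal kept the count at 13 to 19 at 5 days after LPS, 8 to 12 with LPS + Beta-Ac and 8 to 16 at term, where the 8 was without term animal 200. Against LPS alone, LPS + Beta-Ac had 19 of 20 mitosis genes higher (median 0.36), with 0 called by limma or limma-voom and 6 at an unadjusted p below 0.05. Of all 19199 tested genes 9573 were higher, 0.0885% were called and 924 had an unadjusted limma p below 0.05.

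**Figure D5:**
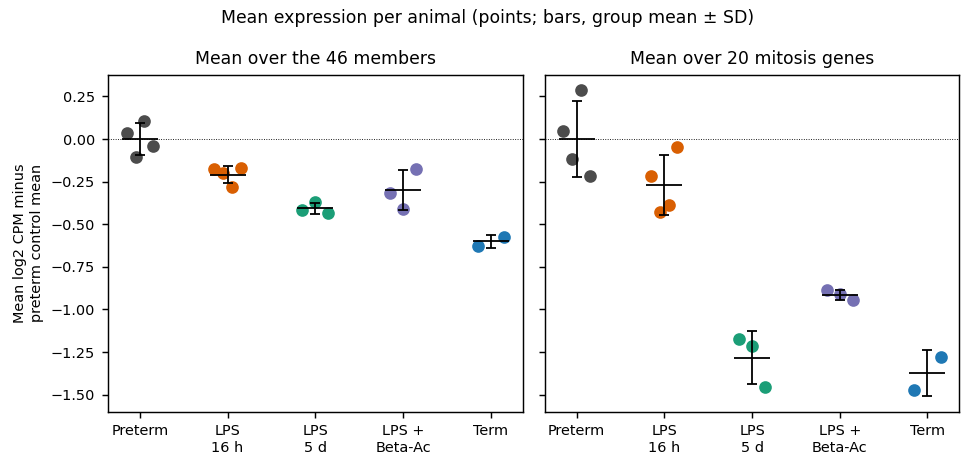
Mean log2 CPM of the 46 genes (left) and of the 20 mitosis genes (right) in each animal, as the difference from the mean of the preterm controls, with group means and SD as bars. The group means of the 46 genes lie at -0.21 at 16 hours, -0.41 at 5 days after LPS, -0.30 with LPS + Beta-Ac and -0.60 at term, and those of the mitosis genes at -0.27, -1.28, -0.91 and -1.37.

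Split by role, the mean log2 CPM differed from the preterm controls by -0.58, -0.85, -0.61 and -1.02 for the G1/S regulators at 16 hours, 5 days after LPS, LPS + Beta-Ac and term. For nucleotide supply the differences were -0.27, -0.66, -0.48 and -0.96 in that order. For licensing they were 0.01, -0.28, -0.12 and -0.55, and for the polymerases and flap processing -0.13, -0.17, -0.16 and -0.33. The polymerase genes thus stayed nearest to the preterm level at term and 5 days after LPS, and the G1/S regulators were farthest from it in all 4 groups. These values describe the animals and were not tested.

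Of 36 further replication genes, 2 were called at 5 days after LPS, both lower, a share of 5.56% beside 4.84% of all tested genes. They were DSCC1, a subunit of the loader for sister chromatid cohesion (-1.85 ± 0.33, limma adjusted p = 0.00198), and HELLS, a chromatin remodeller (-1.05 ± 0.19, adjusted p = 0.00203). In all 6 of the 36 (16.7%) fell at that time, beside 9.23% of all tested genes, and 1 (2.78%) rose (POLD4, 0.79), beside 5.5%, with a median of -0.22. DBF4 and CDC7, the kinase that fires origins, were at -0.75 ± 0.17 and -0.54 ± 0.14 (adjusted p = 0.0102 and 0.0168), and CDC7 rose at 16 hours (0.55 ± 0.13, adjusted p = 0.00329), and POLD4, DBF4 and CDC7 were chosen after their values were seen. Of 15 recombination and Fanconi genes 4 were called at that time, a share of 26.7%. RAD51AP1 (-1.26), BRIP1 (-1.03) and RAD54L were called lower at 5 days after LPS, and the DNA damage kinase ATM was called higher (1.17 ± 0.28, adjusted p = 0.0118).

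The genes that hold cells in G1 or release them were counted as a list of 24, of which 3 (12.5%) were called 5 days after LPS, beside 4.84% of all tested genes. At 5 days after LPS CDK6, a partner of the D cyclins, was called higher (1.76 ± 0.35, limma adjusted p = 0.00411), and E2F7, an atypical repressor like E2F8 (-1.27 ± 0.37, adjusted p = 0.0290), and the CDK inhibitor CDKN2C (-1.16 ± 0.19, adjusted p = 0.00112) were called lower. The CDK inhibitor CDKN1A, a target of p53, was at 24.6, 20.98, 19.9 and 24.7 CPM in the preterm controls, 50.3, 83.5, 90.4 and 72.5 CPM at 16 hours and 24.1, 32.4 and 28.04 CPM at 5 days after LPS. All 16-hour animals lay above both other groups, and CDKN1A rose at 16 hours (1.69 ± 0.23, limma adjusted p = 4.28e-05) with 0.32 ± 0.25 at 5 days (adjusted p = 0.452). CDKN1C fell at 16 hours (-1.24 ± 0.23, adjusted p = 0.000624) and was at 0.09 ± 0.25 at 5 days. CDKN1B fell at both times (-0.85 ± 0.19 and -0.71 ± 0.20, adjusted p = 0.00235 and 0.0289), though the groups overlapped. Its level was 67.3 CPM in preterm control 209 and 124 to 129 CPM in the other preterm controls. The 16-hour animals were at 51.1 to 76.9 CPM and the LPS 5-day animals at 62.6 to 72.2 CPM. Cyclin D1 (CCND1) fell at 16 hours (-1.21 ± 0.13) and at 5 days (-0.56 ± 0.14), with limma adjusted p of 4.40e-06 and 0.0166, and CCND3 rose at 16 hours (0.23 ± 0.08, adjusted p = 0.0399). CCND2, CDK2 and CDKN2A were matched to no ID and are not analysed here.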

How the data were processed

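RNA from the lungs of 16 rhesus fetuses was sequenced, with 1 library per animal. The authors estimated transcript counts with kallisto on build Mmul_10, summarised them to genes with tximport, tested them with DESeq2 and deposited whole-number counts for 22515 Ensembl genes. No source used here gives the annotation release or the strand setting, and the labels and the study's methods differ on the RNA extraction reagent and on some gestational ages, for which the labels were followed. Because the unit of the deposited table could not be checked by code, it was recorded as other, and no count model was run.

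From these counts, log2 CPM were computed with TMM scaling (trims of 30% and 5%) and a prior count of 2. Genes with at least 0.371 CPM in 2 animals and a total of 15 counts were kept, 19199 in all. CPM of single animals carry no prior count. R 4.3.3 with limma 3.58.1 (trend and robust) was fitted to all 16 animals with 1 mean per group and no covariates, and two-sided p values were adjusted by Benjamini-Hochberg over all tested genes. The fit was tested on simulated data. A call needed an adjusted p below 0.05 and a 2-fold change. Nothing in the labels gives litter, sex or batch.

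The 46 genes, the comparison lists (other replication machinery, G1/S control, recombination and Fanconi, mitosis) and the marker lists were chosen with earlier results of these data known. Some marker lists are not reported here. Values in every animal are given, per role, for the gene with the highest mean CPM and the gene with the largest fall at 5 days after LPS, and for genes called higher than preterm control in any comparison. E2F1, E2F2, MCM4, MCM6, POLE, TYMS and BLM were added to these after their values were seen. From each comparison list up to 4 called genes per direction with the largest change at 5 days after LPS are named, with the CDK inhibitors CDKN1A to CDKN1C, the D cyclins, MKI67, TOP2A and CCNB1 whatever their values. Symbols came from a gene table with 17256 of the IDs named, and 172 of 175 list symbols matched. No genome of the files' build was given, so gene overlaps are from RefSeq's models of a newer assembly. TK1 was not found there by symbol. Of the other 45 spans 22 overlap another gene, 12 of them a protein-coding gene. Replicates of a group differed by more than counting noise (chi-square per degree of freedom of 32.5 to 173). Alternatives were other scalings, limma-voom, no filter, a prior count of 0.5, the compared groups alone, no fold minimum and each animal left out.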

Additional observations from a re-analysis of the deposited data

Results flagged for a closer look

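Animal 026 of the LPS 16-hour group lay far from its 3 group mates in POLA2 and in DTL. Its POLA2 level was 14.1 CPM, with the others between 23.6 and 24.8 CPM, so it was the lowest of the group and still above every preterm control. Its DTL level was 59.2 CPM, with the others between 40.6 and 43.2 CPM, so it was the highest of the group and inside the preterm range. Each gap to the nearest animal was a larger share of the group's range (0.909 and 0.838) than Dixon's 95% limit. The check was made 36 times, on single genes and the set mean, in the preterm control and 16-hour groups. Of these checks 2 stood out, both for animal 026, and chance gives about 5% per check. The checks share the same animals and are not independent.

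The effect of LPS on POLA2 differed between the 2 times. Against preterm control it was 1.16 at 16 hours and 0.14 at 5 days on the log2 scale, and the limma test of the difference gave -1.01 (adjusted p = 0.000409).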

How the results depend on the processing

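No paired analysis was possible because each animal number belongs to a single group. Leaving out 1 animal at a time moved the number of the 46 genes called to between 1 and 3 at 16 hours after LPS, 1 and 4 at 5 days, 0 and 2 with LPS + Beta-Ac, 1 and 7 at term, and 0 and 1 between 5 days and 16 hours, and it stayed at 0 in the other 3 comparisons. With library totals alone 0 were called between 5 days and 16 hours. A prior count of 0.5 gave 4 at 5 days after LPS, and a fit to the compared groups gave 1 at term. Without a fold minimum the numbers were 15 at 16 hours, 10 at 5 days, 6 with LPS + Beta-Ac, 14 at term, 12 between 5 days and 16 hours and 1 for LPS + Beta-Ac against term. Leaving out both animals that stood apart, preterm control 209 and term control 200, a choice made after seeing earlier results of the data, gave 4 at 5 days and 4 at term. In that setting 10, 8, 6 and 4 genes fell at 16 hours, 5 days, LPS + Beta-Ac and term. The shares of all tested genes that fell in it, or with 1 animal left out, were not counted. Over 70 gene results of 33 genes and 909 alternatives, 447 with 1 animal left out and 396 others kept their direction and side of the threshold, 27 and 15 lost it, and 12 and 7 newly reached it. POLD1 at 5 days after LPS changed sign around 0: with library totals (-0.0027), with the compared groups (-0.0013), and without preterm control 209 (-0.015), LPS animal 239 (-0.011) or 240 (-0.0019), and over the animals left out it ran from -0.015 to 0.10. Over all tested genes, limma-voom called 3 genes for Beta-Ac added to LPS (17 in the default fit) and 7 for 5 days after LPS against term (12). Fits to the compared groups called 99 genes at term (397), 0 for Beta-Ac added to LPS, 0 for 5 days against term and 13 for LPS + Beta-Ac against term (109). Without a fold minimum 7383, 2827, 3323 and 770 genes were called in the 4 comparisons with preterm control, 6731 between 5 days and 16 hours, and 19 for 5 days against term. Single animals left out moved the term count to between 129 and 559, that for Beta-Ac added to LPS to between 2 and 57, for 5 days against term to between 0 and 11 and for LPS + Beta-Ac against term to between 17 and 127, and without both animals term had 238 and 5 days against term 1. Apart from the smaller samples and the omitted fold minimum, the cause of these shifts was not tested. CLSPN and CCNE2 were more than 2-fold lower at 5 days after LPS and missed the threshold, and CLSPN was called there in the fit to the compared groups (-1.17, limma adjusted p = 0.0239). What depth limits was not tested.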

Other observations

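Of 24 genes that set the pace of G1, 5 (20.8%) were called 16 hours after LPS, beside 14.4% of all tested genes. Those named in this paragraph were chosen after their values were seen, apart from the CDK inhibitors and cyclin D1. MYC, which drives growth and cell cycle entry, rose (2.43 ± 0.16, limma adjusted p = 1.49e-08), and so did E2F3, an activator related to E2F1 (1.39 ± 0.30, adjusted p = 0.00189), and CDKN1A. Cyclin D1 and CDKN1C were called lower in the same animals, so 3 of the 5 were higher and 2 lower. By 5 days MYC and E2F3 were at 0.21 and 0.01, and neither passed the test. Among the 36 further replication genes the histone chaperone ASF1B was called higher at 16 hours (1.47 ± 0.19, adjusted p = 2.77e-05) and the helicase RECQL4 lower (-1.01 ± 0.20, adjusted p = 0.000855). The median of those 36 was 0.07, with 6 (16.7%) that rose and 2 (5.56%) that fell, beside 18.5% and 19.9% of all tested genes. Of the 15 recombination and Fanconi genes 3 fell and 1 rose at 16 hours, against the shares of all tested genes just given.

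With LPS + Beta-Ac the further replication genes had 9 (25.00%) that fell and 1 (2.78%) that rose, and the recombination genes 2 (13.3%) that fell and 1 (6.67%) that rose, beside 10.2% and 7.14% of all tested genes. At term 1 of the 36 fell (DSCC1, -1.86 ± 0.37, limma adjusted p = 0.0145), as did 3 of the 15 recombination genes and 5 of the 24 G1/S control genes, beside 2.58% of all tested genes. The CDK inhibitor CDKN2C was called lower 5 days after LPS, with LPS + Beta-Ac (-1.18 ± 0.19, adjusted p = 0.000649) and at term (-1.34 ± 0.21, adjusted p = 0.00485).

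Summed marker levels of further cell types, though not of every marker list, were taken as ranges over animals. Endothelial markers (PECAM1, CDH5, KDR) were at 1276 to 1521 CPM in the preterm controls, 949 to 1108 CPM at 16 hours, 845 to 1305 CPM at 5 days after LPS, 1009 to 1290 CPM with LPS + Beta-Ac and 732 to 1019 CPM at term. Lung epithelial markers were at 5742 to 8378 CPM in the preterm controls, 5762 to 12834 CPM at 16 hours and 10853 to 16275 CPM over the 5-day and term groups. The surfactant genes SFTPC and SFTPB made up most of this sum. At 5 days after LPS 4 of the 5 epithelial markers were higher than in the preterm controls and EPCAM was lower (-0.19). Myeloid precursor markers (MPO, ELANE, AZU1) were at 4.47 to 6.49 CPM in the preterm controls, 2.62 to 4.25 CPM at 16 hours, 3.52 to 7.60 CPM at 5 days after LPS, 5.90 to 36.1 CPM with LPS + Beta-Ac and 6.08 to 10.3 CPM at term. The part of these cells in the results was not tested.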
